A study of Mus musculus with 38 samples.

Results

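Spleen cells taken 2 days after cyclophosphamide were compared with spleen cells taken 1 day after it, to see which transcripts went on moving between the 2 early days. The comparison used 9 of the 19 mice of the study and 18 of its 38 arrays, chosen by their titles: 4 mice at day 1 and 5 mice at day 2. All mice were of the DBA/2 strain. Treated mice had received cyclophosphamide at 83 mg/kg by the intraperitoneal route, and 5 untreated mice and 5 mice at day 5 stand beside them. Each mouse gave RNA from fresh splenocytes, measured on 2 technical arrays that were averaged. Not given in the sources used here are the sex and age of the mice and the number of injections. A value is the log2 ratio of spleen RNA, labelled with Cy5, to a shared pool of DBA/2 bone marrow RNA, labelled with Cy3. The pool is described as untreated marrow, although its treatment field names the drug; every array shares it, so it cancels between the days. The array carries 13443 probes, and the 8694 (64.7%) measured in 3 or more mice of both days were tested. Among them 6398 carry 1 gene symbol, for 6191 genes, and 2296 carry no single gene name.

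Cyclophosphamide is a prodrug whose activated form cross-links DNA, and cells that are copying their DNA are the most sensitive to it. The mouse spleen, unlike the adult human spleen, keeps making red cells: its red pulp holds erythroid precursors that divide, fill with hemoglobin and lose their nucleus. Heme for that hemoglobin is made in a chain of enzymes that opens with 5-aminolevulinate synthase, of which Alas2 is the erythroid form. Transcription of Alas2 and of many red cell membrane genes is known to depend on Gata1, a factor that binds the letters GATA. In RNA from whole spleen, fewer cells of a type and less RNA per cell cannot be told apart.

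The largest difference between the days was that of Alas2, and the DNA before its start site is shown first because it carries a GATA motif; Rhd, a blood group membrane gene described further on, is shown beside it. Each line gives the 250 bases before the start of the transcript in RefSeq (GRCm38.p6, plus strand of the genome), 5′ to 3′, with the letters AGATAA or their reverse complement TTATCT in capitals.
Alas2, chrX:150547167-150547416: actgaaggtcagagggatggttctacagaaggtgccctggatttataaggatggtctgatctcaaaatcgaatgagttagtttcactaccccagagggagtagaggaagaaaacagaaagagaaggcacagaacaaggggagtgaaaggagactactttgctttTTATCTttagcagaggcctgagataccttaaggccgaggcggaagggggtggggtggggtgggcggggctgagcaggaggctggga
Rhd, chr4:134864286-134864535: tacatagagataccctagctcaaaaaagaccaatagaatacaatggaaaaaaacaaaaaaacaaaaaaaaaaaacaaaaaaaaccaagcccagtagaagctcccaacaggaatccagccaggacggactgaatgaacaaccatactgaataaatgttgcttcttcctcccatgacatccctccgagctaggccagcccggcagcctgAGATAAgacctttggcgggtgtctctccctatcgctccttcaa
The motif opens 86 bases before the Alas2 start, in its reverse form, and 43 bases before the Rhd start, in its forward form. Searched on both strands, it lay in this window of 7 of the 15 red cell precursor genes with a promoter entry, out of 22 measured: Rhd, Alas2, Btnl10, Kel, Icam4, Tal1 and Epor. It lay in 8.89% of the 4970 tested genes with an entry and in 9.99% of all 32851 promoter entries. A match describes these letters in this window and does not show that a factor binds there.

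Between day 1 and day 2, 5 probes fell and 0 rose at an adjusted p under 0.05 in limma, that is 0.0575% of the 8694 tested in the lower direction and 0% in the higher one. At an unadjusted p under 0.05, 345 probes (3.97%) were lower on day 2 and 171 (1.97%) were higher, together 5.94% of those tested. The 5 probes that fell are Alas2, Vav2 and 3 probes that carry no gene name in the annotation used here, 006A11, 027E12 and 032B09. On the volcano plot all of them lie to the left, and Alas2, Vav2 and 006A11 stand apart from every other probe in size.

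**Figure D1:**
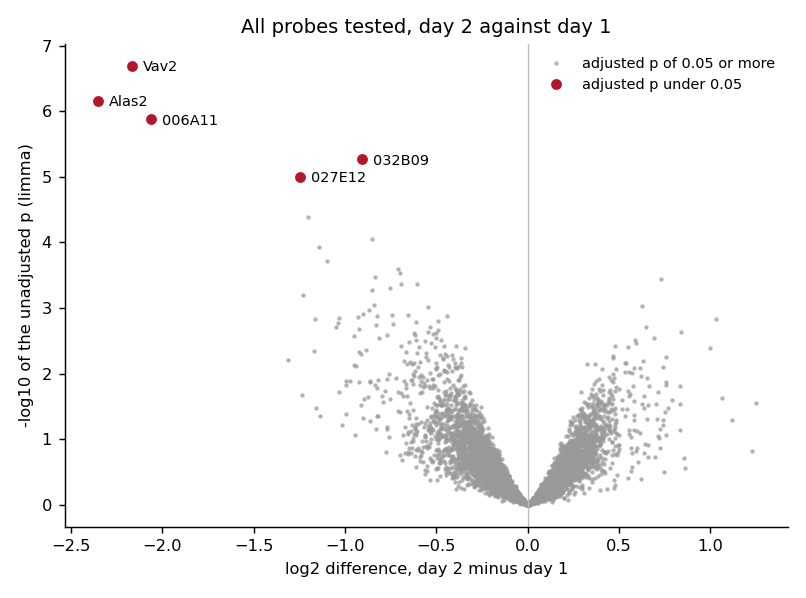
Log2 difference between day 2 and day 1 (horizontal) against the -log10 of the unadjusted limma p (vertical) for each of the 8694 probes tested, with the probes at an adjusted p under 0.05 in red. The 5 red points all lie below 0, between -2.35 for Alas2 and -0.91 for 032B09.

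Alas2 showed the deepest fall. In the 4 mice at day 1 its log2 ratio was -1.82, -2.77, -0.96 and -2.04. In the 5 mice at day 2 it was -4.41, -3.78, -4.67, -3.42 and -4.98. Every mouse at day 2 lay below every mouse at day 1, and every mouse at day 1 lay below the untreated mice, whose values ran from -0.58 to -0.06. The log2 difference between the days was -2.35 ± 0.33 (SE, n = 5 and 4), a level 5.11-fold lower with a 95% interval of 3.15 to 8.29, and the adjusted p in limma was 0.003. This SE, like the others given here, rests on a spread shared by all 4 groups. For Alas2 the SD was 0.195 in untreated mice, 0.745 on day 1 and 0.642 on day 2. In a fit of the 2 days alone Alas2 did not pass (adjusted p in limma 0.145). Against the untreated mice the log2 difference was -1.59 on day 1 (adjusted p in limma 0.0117) and -3.94 on day 2 (1.28e-07), so Alas2 had already fallen on day 1 and fell further. At day 5 the mice ran from -1.47 to 0.02, and the log2 difference from untreated was -0.45 (adjusted p in limma 0.925).

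Vav2, a signalling protein that acts downstream of cell surface receptors, fell nearly as far. Its log2 ratio at day 1 was -2.08, -1.99, -0.81 and -2.06. At day 2 it was -3.90, -3.57, -4.29, -3.58 and -4.17. The days did not overlap, although mouse 3 of day 1 stood well above the other 3 of its group. The log2 difference was -2.17 ± 0.28 (SE, n = 5 and 4), or 4.49-fold lower with a 95% interval of 2.98 to 6.76 and an adjusted p in limma of 0.00177. Untreated mice had a mean of -0.34 ± 0.31 (SD, n = 5); the log2 difference from them was -1.40 on day 1 (adjusted p in limma 0.00897), -3.56 on day 2 (1.15e-07) and -0.72 on day 5 (0.921). The day 5 value leans on 1 array: mouse 3 of day 5 read -3.22 on 1 of its arrays and -0.57 on the other, and with the second alone the day 5 log2 difference from untreated was -0.46. Vav2 was measured on 1 probe, and with the first technical array of each mouse alone it did not pass between the days (log2 difference -2.12, adjusted p in limma 0.0558).

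Of the unnamed probes, 006A11 lay at -2.13, -3.10, -1.03 and -1.88 on day 1 and at -3.97, -3.91, -4.53, -3.77 and -4.31 on day 2. Its log2 difference was -2.06 ± 0.31 (SE, n = 5 and 4; adjusted p in limma 0.00386). Probe 027E12 lay between -2.18 and -1.06 on day 1 and between -3.24 and -2.44 on day 2, a log2 difference of -1.25 ± 0.21 (SE, n = 5 and 4; adjusted p in limma 0.0173). Both had already fallen below the untreated mice on day 1, by 1.66 and 1.22 on the log2 scale, with adjusted p in limma of 0.00455 and 0.00342. Probe 032B09 was different in that respect. It lay between -1.15 and -0.63 on day 1 and between -2.08 and -1.46 on day 2, a log2 difference of -0.91 ± 0.15 (SE, n = 5 and 4; adjusted p in limma 0.0117). Its log2 difference from untreated on day 1, -0.43, did not pass the test (adjusted p in limma 0.157), and that on day 2, -1.34, did (2.48e-06). By day 5 the log2 differences of the 3 probes from untreated were -0.45, -0.30 and -0.08, none past the threshold, which 0.0691% of all probes passed on that day.

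**Figure D2:**
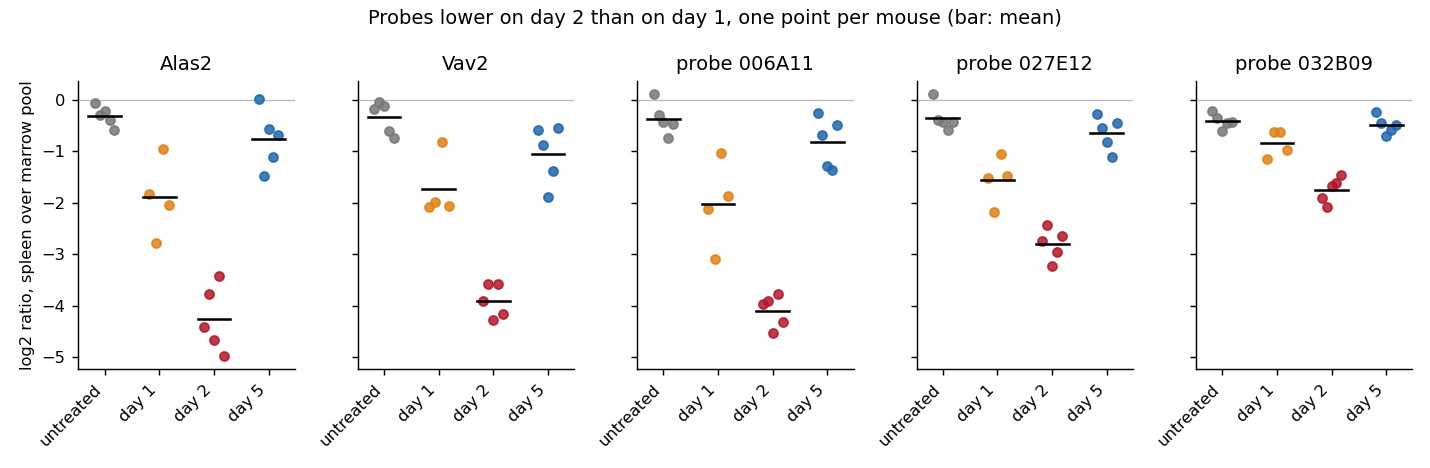
Log2 ratio of spleen to the marrow pool (vertical) for the 5 probes that fell between day 1 and day 2, with 1 point per mouse, the bar marking the group mean, and the groups untreated, day 1, day 2 and day 5 (horizontal). In each panel every day 2 mouse lies below every day 1 mouse, and the highest day 1 point belongs to mouse 3 in all 5.

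The 2 technical arrays of a mouse agreed closely at 3 of these probes: the largest gap between them in any of the 9 mice was 0.36 for Alas2, 0.25 for Vav2 and 0.23 for 006A11, on the log2 scale. It was larger for 027E12 (0.53) and 032B09 (1.05). Mouse 3 of day 1 had the highest day 1 value at all 5 probes; without it 3 probes fell, Alas2 by 2.04, Vav2 by 1.86 and 006A11 by 1.73 on the log2 scale. Without mouse 2 of day 1, which was lowest at 3 of them, 11 probes fell.

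The calls depend on how the arrays are scaled. The SD of the log2 ratios within a mouse ran from 0.506 to 0.699 on day 2 and from 0.508 to 0.586 on day 1. When every array was given the same distribution (quantile normalization), or the same spread, no probe passed the adjusted threshold, while 282 and 331 probes had an unadjusted p under 0.05 in limma. The log2 difference of Alas2 was then -1.59 and -1.90 (adjusted p in limma 0.373 and 0.375) and that of Vav2 -1.34 and -1.75 (0.999 and 0.375). In both scalings every day 2 mouse lay below every day 1 mouse for Alas2 and Vav2. For 006A11 this held under the first only, for 032B09 under the second only, and for 027E12 under neither. These probes were picked because they fell between the same mice, so this order carries no support of its own. In the values as deposited it held for 2.3% of all probes, and the share under either scaling was not counted. A fit of the 2 days alone, which estimates the spread from 9 mice, kept only Vav2 (adjusted p in limma 0.0354). Alas2 had an adjusted p in limma of 0.145 there.

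Red cell precursor genes were low on both days, and between the days Alas2 was the member that passed. Of 37 genes on the list 22 were measured; 1 of 22 fell and 0 rose. The median log2 difference of the list was -0.19, against -0.03 over all 6191 genes tested, and 16 of 22 lay below 0. Besides Alas2, 3 members had an unadjusted p under 0.05 and none of the 3 passed the adjusted test: Tfrc, Mgst3 and Kel, all lower. Against the untreated mice 9 of the 22 had fallen on day 1, where 1.31% of all probes tested had fallen, and 12 of 22 on day 2, where 4.73% had. These 2 comparisons share the untreated mice. The list median against untreated was -0.79 on day 1 and -0.89 on day 2. On the plot of this list by day, Alas2 is the gene whose day 2 point lies farthest from its day 1 point.

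**Figure D3:**
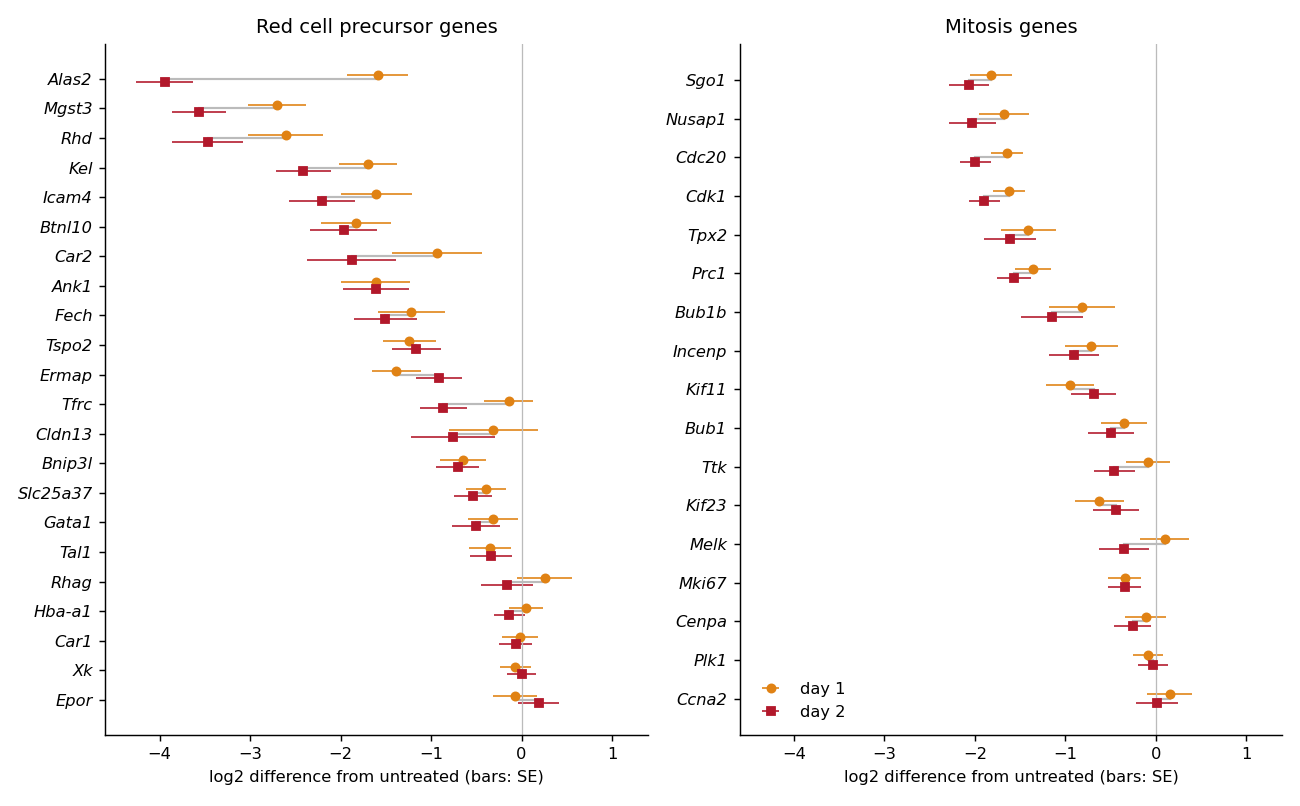
Log2 difference from the untreated mice (horizontal, bars show the SE of the fit) on day 1 (circles) and day 2 (squares) for the 22 measured red cell precursor genes and the 17 measured mitosis genes (vertical). Alas2 moves from -1.59 to -3.94, while the mitosis genes at the top, from Sgo1 to Prc1, have day 1 and day 2 points that lie close together.

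Among the blood group and membrane proteins, Rhd, which encodes the mouse Rh blood group protein, was among the lowest on both days. Its log2 ratio was -2.91, -3.90, -2.37 and -3.29 on day 1 and -4.09, -3.63, -4.58, -3.09 and -4.50 on day 2. The days overlapped, and the log2 difference was -0.86 ± 0.42 (SE, n = 5 and 4; adjusted p in limma 0.839), with a 95% interval from -1.73 to 0.01. Against untreated Rhd had fallen by 2.61 on day 1 and by 3.47 on day 2 on the log2 scale (adjusted p in limma 0.00143 and 6.51e-06). A second Rhd probe lay between -0.41 and 0.12 on day 1 and between -2.29 and -0.05 in 4 mice on day 2, a log2 difference whose 95% interval runs from -1.77 to -0.22 (adjusted p in limma 0.714). Kel, the Kell blood group protease, lay between -2.49 and -1.49 on day 1 and between -3.61 and -2.07 on day 2, a log2 difference of -0.71 ± 0.32 (SE, n = 5 and 4; adjusted p in limma 0.821). Icam4, an adhesion protein of erythroid cells, differed by -0.60 ± 0.39 (SE), and the membrane anchor Ank1 by 0.00 ± 0.39 (SE). Ermap, another blood group protein, had a point estimate on the other side, 0.48 ± 0.27 (SE), with an interval from -0.09 to 1.04. The intervals of the first Rhd probe and of Icam4 hold both no difference and a fall of 2-fold, while those of Ank1 and Ermap leave out a fall of 2-fold.

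The heme and iron list did not follow Alas2 as a group. It mixes heme synthesis and iron uptake genes with others, such as Fth1, Ftl1, Slc40a1, Hamp, Hp, Hpx and Cd163. Its median therefore does not stand for uptake and synthesis alone. The heme and iron list had 16 measured members, of which Alas2 alone fell and 0 rose, with a median log2 difference of -0.04 and 8 members on either side of 0. Tfrc, the transferrin receptor through which precursors take up iron, lay at 0.14, -1.23, 0.08 and 0.37 on day 1 and between -1.13 and -0.72 in all 5 mice on day 2. Mouse 2 of day 1 thus lay below the whole day 2 group and the other 3 lay above it. The log2 difference was -0.72 ± 0.26 (SE, n = 5 and 4; adjusted p in limma 0.687); without mouse 2 of day 1 it was -1.08 and passed (adjusted p in limma 0.0412). Mouse 2 is the one that lay against the difference, and Tfrc passed in no other of the 25 alternatives. The call without it carries no support of its own. Tfrc differed from untreated by -0.14 on day 1 (adjusted p in limma 0.908) and had fallen by 0.86 on day 2 (0.046). Fech, which inserts iron at the end of the heme pathway, differed between the days by -0.29 ± 0.37 (SE), Ppox by 0.10 ± 0.33 (SE) and Cpox by -0.16 ± 0.16 (SE). Abcb10, a mitochondrial transporter of erythroid cells, differed by -0.90 ± 0.43 (SE, n = 4 and 4; adjusted p in limma 0.826), with mice 1 and 2 of day 2 at -2.64 and -1.84 and the other 2 measured at -0.57 and 0.19. Fth1, the heavy chain of the iron store ferritin, was the member with the highest estimate, 0.70 ± 0.30 (SE, n = 5 and 4; adjusted p in limma 0.798).

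The erythroid regulators showed little distance between the days. Gata1 differed by -0.19 ± 0.28 (SE), and Tal1, its partner factor, by 0.02 ± 0.19 (SE). The erythropoietin receptor Epor differed by 0.26 ± 0.23 (SE, n = 4 and 3). The intervals of Gata1, Tal1 and Epor all lie inside 2-fold in either direction. Tal1 and Epor lay near the marrow pool on both days, between -0.37 and 0.21 and between -0.46 and 0.56. How well these probes register a change was not tested. The alpha globin gene Hba-a1 gave no usable reading: on 12 of the 18 arrays of the 2 days its log2 ratio lay within 0.002 of that of the ribosomal protein gene Rps23, and what this shared value is was not tested. Without Hba-a1 the list had a median of -0.19 over 21 genes, 15 of them below 0, with 10 intervals inside 2-fold. Mgst3, a microsomal glutathione transferase placed on this list as an erythroid-rich gene, lay between -3.59 and -1.42 on day 1 and between -4.10 and -2.74 on day 2, a log2 difference of -0.86 ± 0.32 (SE, n = 5 and 4; adjusted p in limma 0.687). Car2, a carbonic anhydrase, differed by -0.94 ± 0.52 (SE, n = 4 and 4), and its day 2 values ran from -3.74 to -0.50.

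By the rule used to name genes, 8 more named genes stood lower on day 2, and none of the 8 passed the adjusted threshold. Fut1, a fucosyltransferase that makes the H blood group sugar, came nearest. Its log2 ratio was -1.50, -1.78, -0.99 and -1.46 on day 1 and -2.18, -2.25, -3.05, -2.81 and -2.59 on day 2. The days did not overlap, as held for 2.3% of all probes in the lower direction, and the log2 difference was -1.14 ± 0.24 (SE, n = 5 and 4; adjusted p in limma 0.129). Oaz3, an antizyme of polyamine synthesis, lay between -1.14 and -0.76 on day 1 and between -2.04 and -1.48 on day 2, a log2 difference of -0.70 ± 0.16 (SE; adjusted p in limma 0.232). Fxyd6, a regulator of the sodium pump, also showed no overlap, with -1.42 to -0.79 on day 1 and -2.57 to -1.85 on day 2 (log2 difference -0.84 ± 0.22, SE). Fut1 and Oaz3 had fallen below untreated on both days: Fut1 by 0.92 and 2.07, and Oaz3 by 0.85 and 1.55 on the log2 scale. Fxyd6 had fallen on day 2, by 1.58.

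Snx24, a sorting nexin, and Izumo1r, a folate receptor family protein of regulatory T cells, overlapped between the days. Snx24 differed by -0.85 ± 0.21 (SE; adjusted p in limma 0.268) and Izumo1r by -0.75 ± 0.18 (SE; adjusted p in limma 0.268). Izumo1r lay between -1.65 and -0.79 on day 1 and between -2.05 and -1.62 on day 2, so that 1 mouse of day 1 reached into the day 2 range. The list of 9 measured regulatory T cell genes had a median of -0.04: Foxp3, their lineage factor, differed by -0.21 ± 0.20 (SE, n = 4 and 3).

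For the other 3 of these genes, as for Fxyd6, the day 1 mice had not moved past the threshold from untreated. Elavl2, a neuronal RNA-binding protein, lay between -0.22 and 0.38 on day 1 and between -1.01 and -0.31 on day 2, a log2 difference of -0.71 ± 0.16 (SE, n = 5 and 4; adjusted p in limma 0.222). Its log2 difference from untreated was -0.08 on day 1 (adjusted p in limma 0.908), and on day 2 it had fallen by 0.79 (0.00194). Col5a3, a fibrillar collagen chain, lay between -0.37 and 0.10 on day 1 and between -1.81 and -0.64 on day 2, a log2 difference of -0.84 ± 0.20 (SE; adjusted p in limma 0.246). Hs6st3, a heparan sulfate sulfotransferase, was above the marrow pool on both days, between 0.72 and 1.47 on day 1 and between 0.28 and 0.70 on day 2. Its log2 difference was -0.61 ± 0.14 (SE; adjusted p in limma 0.253), and its difference from untreated was 0.49 on day 1 and -0.12 on day 2, neither past the threshold.

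In the higher direction no gene passed, and the 10 named genes with the smallest p had adjusted p in limma of 0.246 to 0.588. Pros1, which encodes the anticoagulant protein S, had one of the larger estimates. It lay at 0.28, 1.16, -0.39 and -0.04 on day 1 and at 0.70, 0.74, 2.02, 1.14 and 1.65 on day 2, with overlap, a log2 difference of 1.00 ± 0.31 (SE, n = 5 and 4; adjusted p in limma 0.52). Ddx21, a nucleolar RNA helicase, lay between -0.88 and 0.29 on day 1 and between 0.31 and 0.74 on day 2 (log2 difference 0.76 ± 0.24, SE). Mprip, a myosin phosphatase adaptor, differed by 0.65 ± 0.18 (SE), the homeobox factor Hoxb6 by 0.48 ± 0.15 (SE) and the Wnt receptor Fzd8 by 0.55 ± 0.17 (SE). Hoxb6, Ddx21 and Izumo4 did not overlap between the days, as held for 1.15% of all probes in the higher direction. Hrk, a death-promoting relative of Bcl2, differed by 1.03 ± 0.27 (SE), Oc90 by 0.73 ± 0.16 (SE) and Insl5 by 0.59 ± 0.16 (SE), each over 3 mice of either day with no overlap, so part of each group had no value. With so few mice a lack of overlap arises more easily. The share of 1.15% is over all probes, most of them measured in all 9 mice, and does not apply to these 3 genes. The remaining pair, Tmbim7 and Izumo4, differed by 0.47 ± 0.15 (SE) and 0.46 ± 0.15 (SE).

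**Figure D4:**
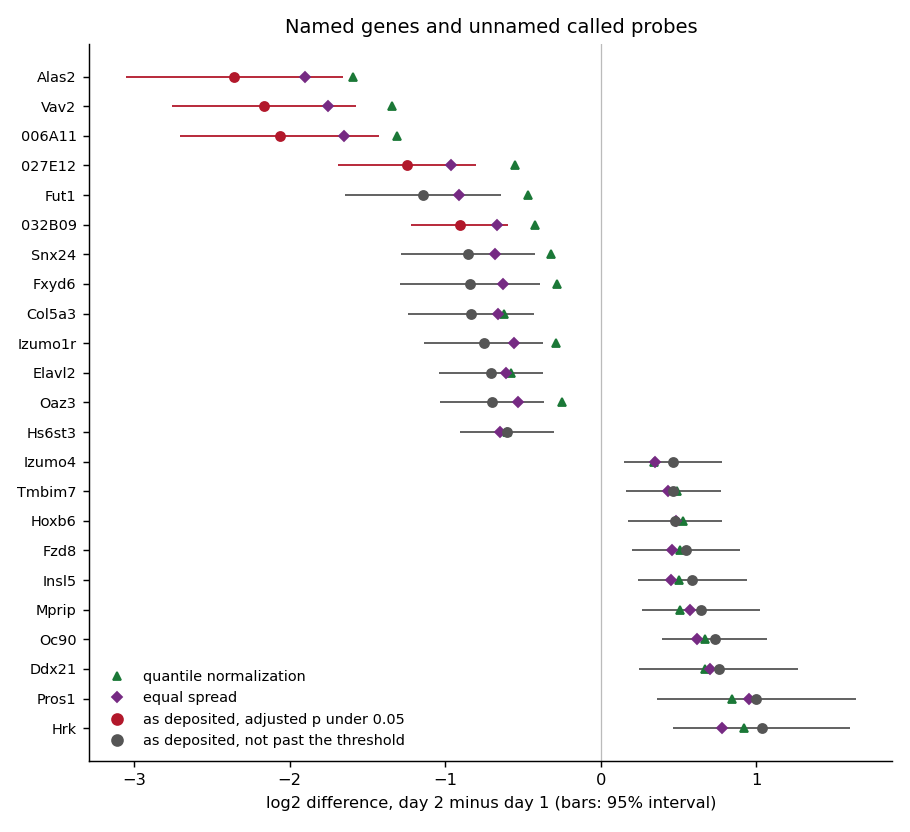
Log2 difference between day 2 and day 1 (horizontal) for the named genes and the 3 unnamed probes that fell (vertical): circles give the values as deposited with 95% intervals, red where the adjusted p is under 0.05; triangles and diamonds give the difference after quantile normalization and after scaling to equal spread. For Alas2 the 3 estimates are -2.35, -1.59 and -1.90. No gene changes side, but the genes were named for their difference in these same mice.

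Mitosis genes were low against untreated on day 1 and stood close to that level on day 2. The list had 17 measured members, of which 0 fell and 0 rose between the days in limma, with 0 at an unadjusted p under 0.05. The median log2 difference was -0.21 and 14 of 17 lay below 0. Against untreated 6 of 17 had fallen on day 1, where 1.31% of all probes had, and 8 on day 2, where 4.73% had, with list medians of -0.71 and -0.69. Cdc20, which activates the ligase that ends metaphase, lay at -1.84, -2.68, -1.94 and -2.02 on day 1 and between -2.76 and -2.18 on day 2. The days overlapped, and the log2 difference was -0.35 ± 0.18 (SE, n = 5 and 4), with an interval from -0.72 to 0.02. Cdk1, the mitotic kinase, differed by -0.27 ± 0.18 (SE), with an interval from -0.65 to 0.11, while it had fallen against untreated by 1.62 on day 1 and by 1.90 on day 2. For the spindle proteins Nusap1, Tpx2 and Prc1 the differences were -0.35 ± 0.27, -0.21 ± 0.31 and -0.21 ± 0.20 (SE). The interval lay inside 2-fold for 16 of the 17 genes, so that for these a 2-fold difference between the days lay outside the interval. Some of the 17 lay nearer the marrow pool on both days than Cdc20 and Cdk1, such as Mki67 (-0.63 to 0.08) and Cenpa (-0.64 to 0.11). Whether such probes register a change was not tested.

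DNA replication and nucleotide supply genes likewise had no member past the test between the days. Of 15 measured replication genes 6 lay above 0 and 9 below, the median was -0.09, and 12 intervals lay inside 2-fold. Mcm6, a subunit of the replicative helicase, had the lowest estimate, -0.48 ± 0.28 (SE), with 1 day 1 mouse far below the other 3, which lay between -0.47 and -0.24, and day 2 mice from -1.77 to -0.83. Rfc4, a clamp loader subunit, had the highest, 0.42 ± 0.28 (SE), and the sliding clamp Pcna differed by -0.16 ± 0.25 (SE). Against untreated 2 of the 15 replication genes had fallen on day 1 and 7 on day 2, beside 1.31% and 4.73% of all probes, with list medians of -0.53 and -0.54. Among 11 nucleotide supply genes, with a median of -0.02, Dut, which clears dUTP, gave the tightest estimate: -1.34, -1.91, -1.69 and -1.24 on day 1, between -1.78 and -1.40 on day 2, and a log2 difference of -0.09 ± 0.15 (SE). Tyms, thymidylate synthase, differed by -0.02 ± 0.22 (SE). Rrm2, the cell-cycle subunit of ribonucleotide reductase, split the day 2 mice: mice 1 and 2 lay at -2.42 and -1.85 and the other 3 at -0.54, -0.39 and -0.27, against -1.93 to -1.46 on day 1. Its log2 difference was 0.50 ± 0.33 (SE, n = 5 and 4; adjusted p in limma 0.899). The same 2 mice stood low together at other genes: thymidine kinase Tk1 at -2.12 and -1.36 against -0.32 and -0.03, the origin subunit Orc1 at -1.52 and -1.76 against -0.09 to 0.11, and the claudin Cldn13 at -2.42 and -2.13 against -0.50 to 0.09. Abcb10 and the second Rhd probe split in this way too. Of the 9 mice, mice 1 and 2 of day 2 had the lowest correlations between their 2 arrays, 0.775 and 0.725. When limma weighted the arrays, they also had the lowest weights of all 19 mice, 0.404 and 0.582. Over 7722 probes, mice 1 and 2 lay together more than 1 on the log2 scale below every other day 2 mouse at 25 and above at 7, while in the other 9 pairs of day 2 mice these counts ran from 0 to 7. The reason was not tested. With both mice left out, Alas2, Vav2, 006A11 and 027E12 still passed, with log2 differences of -2.46, -2.28, -2.17 and -1.39 (adjusted p in limma 0.0168, 0.0165, 0.0194 and 0.026), and 032B09 did not (-0.75, 0.0728).

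Targets of p53, the factor that responds to DNA damage, showed no call between the days among 12 measured genes, the median was -0.07, and all 12 intervals lay inside 2-fold. Trp53inp1, a p53-induced stress protein, had the smallest p, with a log2 difference of -0.44 ± 0.16 (SE; adjusted p in limma 0.687), and Btg2, a growth-restraining target, came next with -0.39 ± 0.18 (SE). Polk, a polymerase that copies past damaged bases, had risen against untreated by 0.72 on day 1, where 0.886% of all probes had risen, and by 0.50 on day 2, where 3.07% had, and differed between the days by -0.23 ± 0.15 (SE). Of 15 crosslink repair genes, with a median of -0.04, none passed; Brca1, of homologous recombination, differed by -0.51 ± 0.22 (SE) and had fallen against untreated on day 2 by 1.16 (adjusted p in limma 0.000906). Among 13 apoptosis genes, with a median of -0.01, Birc3, an inhibitor of apoptosis, lay between -0.01 and 0.76 on day 1 and between 0.69 and 0.98 on day 2, a log2 difference of 0.34 ± 0.19 (SE).

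Inflammatory and innate genes had point estimates in both directions and no call. Il1b, the cytokine interleukin-1 beta, lay at 0.84, 1.16, 0.49 and 1.45 on day 1 and between 1.24 and 1.86 on day 2, with a log2 difference of 0.44 ± 0.18 (SE; adjusted p in limma 0.798). On this probe it had risen against untreated on both days, by 1.17 and 1.61. A second probe of the gene differed between the days by 0.23 ± 0.16 (SE) and did not show that rise. Its differences from untreated were 0.04 on day 1 and 0.26 on day 2 (adjusted p in limma 0.966 and 0.326). Slfn4, a myeloid gene, lay between -1.69 and -0.99 on day 1 and between -1.06 and -0.17 on day 2, a log2 difference of 0.83 ± 0.36 (SE; adjusted p in limma 0.798). It differed from untreated by 0.65 on day 1 (adjusted p in limma 0.478) and had risen by 1.48 on day 2 (0.00793). The inflammation list as a whole, 21 genes, had a median of -0.12, with 10 genes above 0 and 11 below. Interferon-stimulated genes had a median of 0.00 over 14 members; Ube2l6, which conjugates the ubiquitin-like protein Isg15, differed by -0.94 ± 0.32 (SE; adjusted p in limma 0.602) and had fallen against untreated by 1.37 and 2.31. Its direction was unlike that of the list median against untreated, which was 0.36 on day 1 and 0.18 on day 2.

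Macrophage genes were the list with the lowest median between the days, -0.24 over 12 measured genes, with 8 below 0 and none past the test. Siglec1, a sialic acid receptor of marginal metallophilic macrophages, went the other way in its estimate. Its 4 values on day 1 lay between 1.55 and 1.68, its 5 values on day 2 between 1.67 and 2.37, and the log2 difference was 0.47 ± 0.17 (SE, n = 5 and 4; adjusted p in limma 0.658). Siglec1 had risen against untreated by 0.77 on day 1 and by 1.24 on day 2. C1qa, a complement subunit made by macrophages, differed by -1.16 ± 0.50 (SE, n = 4 and 3; adjusted p in limma 0.817); its day 1 values were 3.36, 0.58 and 1.00, so 1 mouse stood far above the other 2. The mannose receptor Mrc1 differed by 0.48 ± 0.33 (SE) and the hemoglobin scavenger receptor Cd163 by -0.28 ± 0.15 (SE). Only 6 of the 12 intervals lay inside 2-fold, the same number as for the 13 stroma genes, whose median was -0.24. The stromal collagen Col1a1 lay between 0.55 and 0.86 in 3 mice on day 1 and between 0.10 and 0.41 in 4 mice on day 2, a log2 difference of -0.42 ± 0.19 (SE; adjusted p in limma 0.826). The days did not overlap, as held for 2.3% of all probes in the lower direction, most of them measured in more mice.

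The measured genes of lymphocytes, the most numerous cells of the spleen, differed little between the days. The median log2 difference was -0.03 over 15 mature B cell genes, 0.12 over 8 T cell genes, 0.04 over 14 NK and cytotoxic genes, and 0.02 over 7 plasma cell genes, with no call in any of them. Intervals lay inside 2-fold for 12 of the 15 B cell genes, 7 of the 8 T cell genes and all 14 NK and cytotoxic genes. The T cell list holds 32 genes, so most of it was not measured. Some probes lay near the marrow pool on both days, such as Cd8a (-0.51 to 0.11) and Blk (-0.24 to 0.56). Others lay well above it, such as Ms4a1 (1.57 to 2.15). Whether the probes near the pool register a change was not tested. Cd37, a tetraspanin of B cells, had the smallest p among B cell genes (log2 difference -0.38 ± 0.15, SE; adjusted p in limma 0.767). Zap70, the kinase beside the T cell receptor, differed by 0.34 ± 0.20 (SE). Ncr1 and Ifng, a receptor and a cytokine of NK cells, differed by -0.35 ± 0.15 and 0.31 ± 0.15 (SE). The 5 MHC class II genes had a median of 0.02, and for 11 MHC class I genes it was -0.02, although H2-T23 and Tap1 had unadjusted p under 0.05 with estimates of 0.47 ± 0.17 and 0.52 ± 0.23 (SE).

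Among the rarer myeloid cells a few genes had larger estimates without passing. Ccr3, the eotaxin receptor of eosinophils, lay at 0.61, 1.18, 1.33 and 1.29 on day 1 and between 1.51 and 2.59 on day 2, a log2 difference of 0.84 ± 0.32 (SE, n = 5 and 4; adjusted p in limma 0.716). The days did not overlap for Ccr3, as held for 1.15% of all probes in the higher direction. It had risen against untreated on day 2, by 1.37 (adjusted p in limma 0.00581). Il5ra, another eosinophil receptor, differed by 0.25 ± 0.16 (SE) and the eosinophil peroxidase Epx by -0.25 ± 0.21 (SE). Id2, an inhibitor of helix-loop-helix factors needed by dendritic and innate lymphoid cells, lay between 0.27 and 1.22 on day 1 and between 1.09 and 1.91 on day 2, a log2 difference of 0.71 ± 0.28 (SE; adjusted p in limma 0.749). It had risen against untreated by 1.59 on day 2. Prtn3, a granule protease of early myeloid cells, had the highest estimate of any probe tested, 1.25 ± 0.53 (SE; adjusted p in limma 0.798), with values from -4.32 to -2.65 on day 1 and from -3.33 to -1.03 on day 2. Among other granule genes Camp, a cathelicidin, differed by 1.23 ± 0.80 (SE, n = 3 and 3), with 1 day 1 mouse at -3.33 and the other 2 at 0.20 and 0.15. Ngp differed by 0.42 ± 0.40 (SE) and Elane, the neutrophil elastase, by -0.21 ± 0.19 (SE), and the early granule list of 7 genes had a median of 0.05. The neutrophil list of 14 genes had a median of 0.06 with 5 intervals inside 2-fold; the median was 0.54 under quantile normalization and 0.31 under equal spread. The 10 measured megakaryocyte and platelet genes had the highest median of the 38 lists, 0.12, with 8 above 0 and none past the test.

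Housekeeping and metabolic lists had no call between the days. The 31 cytosolic ribosome genes had a median log2 difference of 0.04, but 8 of them, Rps23 included, held the value of Rps23 within 0.002 on 9 or more of the 18 arrays. Without these 8 the median was -0.08, with 9 of 23 genes above 0. Of all probes tested 24 shared that value in this way; none of the 5 probes that fell did so on any array, and of the genes on the other 37 lists Hba-a1 alone was among the 24. The median log2 difference was 0.06 over 14 proteasome genes, -0.04 over 11 heat shock genes and -0.05 over 23 lysosome genes. Oxidative phosphorylation genes had a median of -0.07, with 22 of 29 below 0. Ndufa4, a respiratory chain protein, had the smallest p of that list, with a log2 difference of -0.50 ± 0.17 (SE; adjusted p in limma 0.621). Among 20 detoxification genes Prdx1, a peroxiredoxin, differed by 0.32 ± 0.15 (SE) and the glutathione peroxidase Gpx1 by -0.48 ± 0.25 (SE). Leaving aside Mgst3, which also stands on the detoxification list, the lowest estimate in these 6 lists was -0.65, for the ribosomal protein Rps29. The lists not taken up above had no call either, with medians of -0.13 for matrix, -0.09 for mast cell, basophil and eosinophil, -0.09 for detoxification, -0.06 for complement, -0.06 for monocyte and -0.04 for cholesterol genes. They were 0.02 for stem and progenitor, 0.06 for unfolded protein, 0.06 for endothelium, 0.07 for dendritic cell and 0.09 for glycolysis genes.

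**Figure D5:**
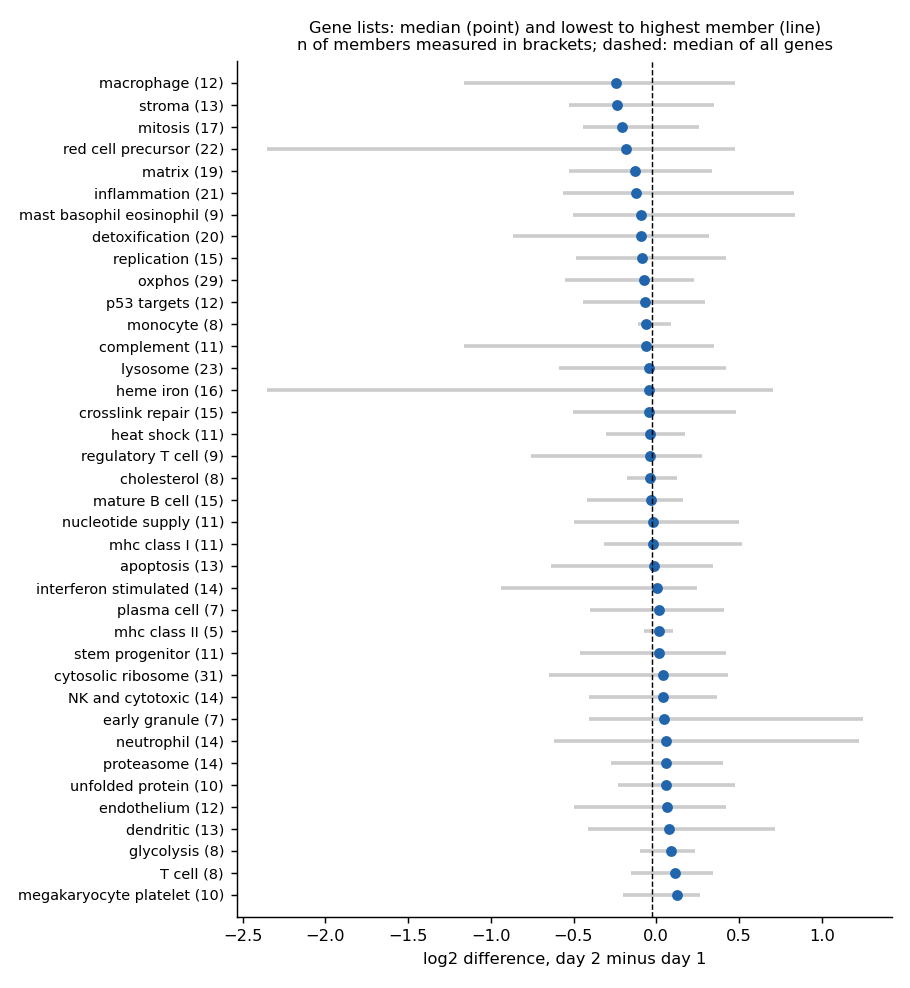
Median log2 difference between day 2 and day 1 (point, horizontal) and the lowest to highest member (line) for each of 38 gene lists (vertical), with the number of measured members in brackets and the median of all genes tested as a dashed line. The medians run from -0.24 to 0.12, and the red cell precursor and heme and iron lists reach to -2.35 through Alas2.

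Across all probes the median log2 difference between the days was -0.02 and 54.9% of the estimates lay below 0. The 95% interval lay inside 2-fold in either direction for 8135 of the 8694 probes (93.6%), at a median SE of 0.185. The point estimate lay beyond 2-fold for 19 probes in the lower and 5 in the higher direction, of which 18 and 3 had an unadjusted p under 0.05. Beyond those named above they include the unnamed probe 032A17, whose log2 difference of -1.20 ± 0.23 (SE) did not pass (adjusted p in limma 0.0599). For comparison in the same fit, 191 of 8686 probes (2.2%) differed between day 1 and untreated and 678 (7.81%) between day 2 and untreated. The step from day 1 to day 2 was tested on its own above, and the difference between these counts was not.

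As a check of the tissue, median log2 ratios of marker lists against the marrow pool were computed for each mouse. Neutrophil genes, plentiful in marrow, lay below the pool in all 9 mice, from -2.66 to -1.46. The 5 MHC class II genes, plentiful in spleen, lay above it in all 9, from 0.38 to 0.88. Plasma cell genes also lay above it, from 0.01 to 0.47. T cell, mature B cell and NK and cytotoxic genes did not lie above it in every mouse. Their medians ran from -0.08 to 0.73, from -0.00 to 0.46 and from -0.16 to 0.06. A mouse had values at 6554 to 10822 probes on day 2 and at 8698 to 10087 on day 1, and its 2 arrays correlated at 0.725 to 0.962 and 0.830 to 0.913. No label gives a slide, a hybridisation day or another batch, so none was tested.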

How the data were processed

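Per the labels, splenocyte RNA was amplified and labelled with Cy5 and hybridised with Cy3-labelled RNA of a marrow pool, with no dye swap. The values the authors deposited are log ratios of spleen over pool, taken here as log2. Not given in the sources used here: the log base, background correction, spot filter, normalization and software. Array medians lie between -0.0212 and 0.0132, and values end at 6 in size, which 7 values reach.

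The 2 arrays of a mouse were averaged and probes with a value in 3 or more mice of both days were kept. All 4 groups were fitted in limma 3.58.1 (R 4.3.3; lmFit, eBayes; prior degrees of freedom 5.54), because the shared spread adds mice to its estimate. The contrast is day 2 minus day 1, two-sided, with Benjamini-Hochberg adjustment over all 8694 probes at 0.05. The number of mice limits the precision. Steps were tested on simulated data.

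Probe names come from the platform annotation, updated through RefSeq identifiers (GRCm38.p6, names only) for 10028 probes. Named genes are those past the threshold with 1 gene symbol and every day 2 mouse on the same side of the day 1 mean, filled up to 10 per direction by smallest p, and up to 4 members of each list by smallest p; other members account for a list's roles. Unnamed probes past the threshold, second probes of a gene and 032A17 were added after their values were seen. For a list, 1 probe per gene was used, 38 lists in all, with 1066 of 1069 symbols matched. The comparison, members and lists were chosen with earlier results of these data known. Same-numbered mice were not treated as pairs. Alternatives were other scalings, filters, weights and models, 25 in all; leaving out mice 1 and 2 of day 2 together was chosen after seeing the data. Plots used matplotlib 3.10.9 (Python 3.11.15).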

Additional observations from a re-analysis of the deposited data

Results flagged for a closer look

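In 4 of the 39 groups of 4 or 5 mice examined for the named genes and probes, 1 mouse stood far from the others by Dixon's test; chance marks about 1 in 20 such groups. Vav2 in mouse 3 of day 1 had a log2 ratio of -0.81, against -2.08 to -1.99 in the other 3. Oaz3 in the same mouse had -0.76, against -1.14 to -1.09. Col5a3 in mouse 1 of day 2 had -1.81, against -0.93 to -0.64 in the other 4. Fxyd6 in mouse 3 of day 2 had -2.57, against -1.99 to -1.85. Mouse 3 of day 1 was the highest of its group in 10 of the 13 genes and probes described as lower on day 2, and mouse 3 of day 2 was the lowest of its group in 7 of 13. The reason was not tested.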

How the results depend on the processing

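The count of probes that changed between the days, 5 as reported and all lower, was recomputed under 25 alternatives. It was 0 under quantile normalization and under equal spread, and 1 in the fit of the 2 days alone. With the probes of a gene averaged it was 2, Alas2 and Vav2. That setting holds named genes only, so the 3 unnamed probes could not pass in it. With no filter on missing values it was 9 (2 higher, Eed and Tubb2a, which then rest on fewer mice). The count was 20 with array weights and 27 with both arrays kept and the mouse as a random effect. That last model counts arrays, not mice, in its degrees of freedom and uses 1 correlation for all probes. Its p-values can therefore be too small. Without mice 1 and 2 of day 2 together, chosen for their values, the count was 9 (2 higher, Rrm2 and 018E08). These 2 calls carry no support of their own. With the mouse number as a replicate block it was 3, with Alas2 at -2.28 and Vav2 at -2.15 (adjusted p in limma 0.0197 for both). The numbers do not pair the mice: deviations of same-numbered mice correlated at -0.132 to -0.0185, and no day 1 mouse correlated best with its own number. Leaving out 1 mouse at a time gave 3 to 11 probes, all lower. Alas2 and Vav2 each passed in 22 of 25 alternatives, and 006A11, 027E12 and 032B09 in 21, 14 and 17 of 24. None of the 539 recomputed differences of single genes and probes turned sign, and 26 lost and 16 gained the threshold. These genes and probes were named for small p in the same mice, so the kept sign carries no support of its own. Of 950 recomputed list medians 905 moved by less than the spread between mice. The neutrophil median, 0.06 as reported, was 0.54 under quantile normalization and 0.31 under equal spread. Other causes of these shifts were not tested.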
